A study of Homo sapiens with 12 samples.

Results

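FOXO factors are forkhead transcription factors, and the genes described here are 3 of them, FOXO1, FOXO3 and FOXO4, together with 7 genes that have been described as their targets: CDKN1B, CCNG2, TXNIP, SESN3, IRS2, FBXO32 and CITED2. They were listed by name, with earlier results of these data known, and make 10 of the 60649 gene IDs in the expression table. All 10 were among the 17576 genes kept by the filter on low counts. RNA was sequenced from MDA-MB-231 cells, an established human breast cancer line without oestrogen receptor, infected with lentivirus made in HEK-293T cells and kept under puromycin. There were 4 groups of 3 libraries: cells with a sham-targeting short hairpin RNA (control, labelled untreated), cells with a hairpin against SIRT1 (SIRT1 KD), cells with a hairpin against IGF2BP2 (IGF2BP2 KD) and cells with both (double KD). All groups, control included, therefore carried a hairpin virus and were grown under selection. How many hairpins were used per gene, and whether a replicate is a separate infection, is not stated in the labels. P-values set a difference against the spread between libraries of the same condition, estimated over all 4 groups together. That spread may be technical. Leaving out a library can therefore change the adjusted p of comparisons that do not include it. Values are normalised counts, that is read counts divided by a size factor for each library. In RNA from a whole culture, fewer cells with a transcript and less of it per cell cannot be told apart.

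FOXO proteins bind short DNA elements and switch on genes for cell cycle arrest, stress resistance and catabolism. Insulin and growth factors act through PI3K and AKT, which phosphorylates FOXO, so that 14-3-3 proteins hold it in the cytoplasm. SIRT1 is an NAD-dependent deacetylase whose substrates include FOXO proteins, and IGF2BP2 binds mRNAs and affects their stability and translation. FOXO3 and FOXO1 have been studied in breast cancer as brakes on growth. Only RNA was measured here, so nothing below bears on the phosphorylation, acetylation or location of FOXO proteins.

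The targeted genes followed their labels. SIRT1 stood at 834 ± 32.7 normalised counts in control (SD, n = 3), 527 ± 27.5 in SIRT1 KD (63.2% of control) and 404 ± 28.7 in double KD (48.4%). In IGF2BP2 KD, SIRT1 stood at 728 ± 35.8 (87.3% of control). All libraries of that group lay below all control libraries. The change of -0.20 on the log2 scale was not called (limma adjusted p = 0.102). IGF2BP2 stood at 762 ± 69.6 in IGF2BP2 KD (24.8% of control) and 864 ± 140 in double KD (28.1%). Double KD had less SIRT1 than SIRT1 KD (-0.38 on the log2 scale, adjusted p = 0.00157), so these groups differed in SIRT1 mRNA as well as in the IGF2BP2 hairpin. Libraries held 19522606 to 22509142 reads in 11 cases and 15243152 in double KD replicate 2, which also had the lowest share of mitochondrial counts (1.18% against 1.99 to 2.57%) and stood furthest from its partners. Leaving it out kept the call of every member called in double KD against control. The line's markers VIM, CD44 and AXL lay at 14105 to 59216 counts. ESR1, PGR and CDH1 lay at 0 to 24.1 and the epithelial marker EPCAM at 134 to 243. Of the other luminal epithelial markers, KRT19 lay at 6220 to 11202 and GATA3 at 121 to 221. The 4 immune markers summed to 0.89 to 10.5.

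Of the 10 members, 7 were called against control in SIRT1 KD, 2 in IGF2BP2 KD and 8 in double KD. A gene was called where its Benjamini-Hochberg adjusted p from limma, over all genes tested, was under 0.05. SIRT1 KD cells had 4 of 10 members higher than control (FOXO3, CDKN1B, IRS2, FBXO32), where 12.9% of all genes were called higher, and 3 lower (CCNG2, TXNIP, SESN3), where 15.7% were called lower and 28.6% either way. IGF2BP2 KD cells had 2 members higher (FOXO4, CDKN1B) against 6.86% of all genes, and 0 lower against 9.39% (16.3% were called in either direction). An unadjusted p under 0.05 was reached by 2 lower members there, while edgeR called 2 lower and DESeq2 called 1. Double KD cells had 3 members higher (FOXO3, CDKN1B, IRS2) against 16.7% of all genes, and 5 lower (FOXO1, CCNG2, TXNIP, SESN3, CITED2) against 17.5% (34.2% in either direction). The members' median log2 fold change was 0.06 in SIRT1 KD, 0.03 in IGF2BP2 KD and -0.25 in double KD, beside -0.00, -0.00 and 0.01 over all genes. These 3 comparisons share the control libraries.

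**Figure D1:**
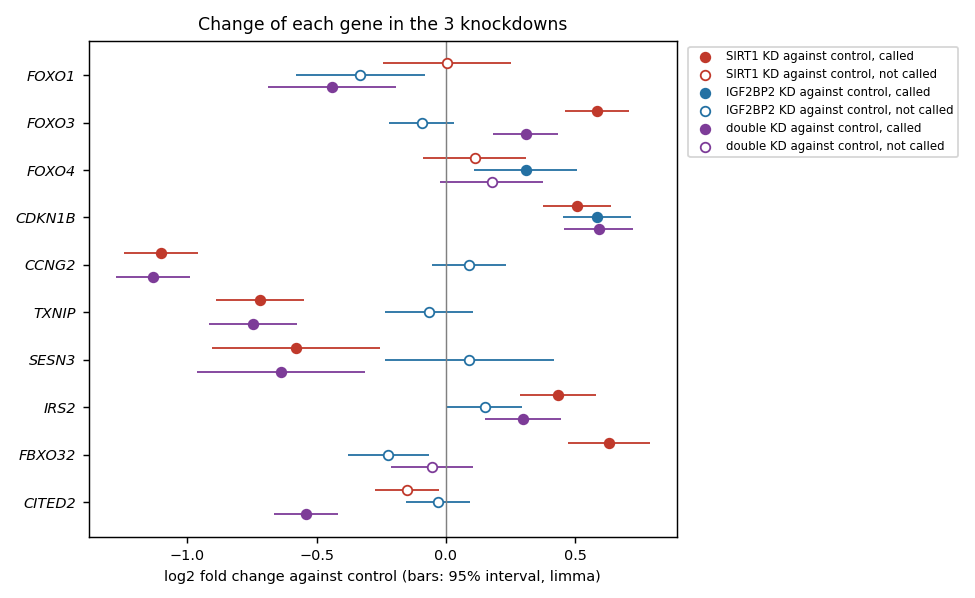
Log2 fold change against control of each of the 10 members in SIRT1 KD, IGF2BP2 KD and double KD cells, with 95% intervals from the limma fit (3 libraries per group). CCNG2, TXNIP and SESN3 lie below 0 in both groups with the SIRT1 hairpin, and CDKN1B lies above 0 in all 3 groups.

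Promoter windows are printed for 4 target genes, the pair with the largest falls on the log2 scale in SIRT1 KD (CCNG2, TXNIP) and a pair that rose (CDKN1B, IRS2), because FOXO proteins act through short elements in such DNA. The windows run from 250 bases before to 50 bases after the start of the gene in RefSeq, build GRCh38.p14, and are written 5′ to 3′ on the gene's strand. They lie at chr1:145996530-145996829 (TXNIP, minus strand), chr4:77156957-77157256 (CCNG2, plus), chr12:12717118-12717417 (CDKN1B, plus) and chr13:109786534-109786833 (IRS2, minus). Capitals mark a match, on either strand, to the forkhead core GTAAACA, to its variant form ATAAACA or to the insulin response element core, whose letters are CAAAACA.
TXNIP: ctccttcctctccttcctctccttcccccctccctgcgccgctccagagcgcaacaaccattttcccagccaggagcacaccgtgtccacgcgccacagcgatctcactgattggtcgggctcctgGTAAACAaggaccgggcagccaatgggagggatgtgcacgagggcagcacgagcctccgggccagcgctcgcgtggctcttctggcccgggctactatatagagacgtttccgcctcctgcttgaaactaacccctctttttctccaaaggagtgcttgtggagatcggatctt
CCNG2: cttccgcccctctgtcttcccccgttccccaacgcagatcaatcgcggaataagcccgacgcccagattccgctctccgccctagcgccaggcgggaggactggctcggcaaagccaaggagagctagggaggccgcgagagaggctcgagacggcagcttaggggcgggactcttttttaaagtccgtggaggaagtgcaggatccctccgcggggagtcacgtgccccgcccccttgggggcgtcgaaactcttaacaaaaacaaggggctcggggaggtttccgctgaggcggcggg
CDKN1B: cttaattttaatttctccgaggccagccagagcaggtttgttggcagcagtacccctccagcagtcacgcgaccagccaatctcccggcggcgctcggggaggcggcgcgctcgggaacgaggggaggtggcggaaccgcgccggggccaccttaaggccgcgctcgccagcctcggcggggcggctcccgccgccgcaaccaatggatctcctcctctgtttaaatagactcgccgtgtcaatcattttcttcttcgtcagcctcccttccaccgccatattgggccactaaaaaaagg
IRS2: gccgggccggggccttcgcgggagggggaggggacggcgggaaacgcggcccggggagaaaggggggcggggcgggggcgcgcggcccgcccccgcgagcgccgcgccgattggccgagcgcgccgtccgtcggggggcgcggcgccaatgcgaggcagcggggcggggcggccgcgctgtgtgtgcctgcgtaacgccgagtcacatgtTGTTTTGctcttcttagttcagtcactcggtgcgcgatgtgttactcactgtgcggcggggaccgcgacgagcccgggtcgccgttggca
TXNIP holds GTAAACA at 124 bases before its start (position -124) in the window shown, and its other window in the table, chr1:145995695-145995994, holds no match. IRS2 holds CAAAACA on the opposite strand at -40. CCNG2 and CDKN1B hold none of the 3 in these windows. No window of FBXO32 was searched. Among the other members with windows in the table, FOXO4 has GTAAACA at 23 bases after its start and 1 of the 4 FOXO3 windows has ATAAACA at -234, while FOXO1, SESN3 and the 3 CITED2 windows have no match. Of 35116 RefSeq promoter windows of the same length, 3.42% hold GTAAACA, 4.24% ATAAACA, 4.92% CAAAACA and 11.8% any of them. A match is a description of the letters, and 1 member that holds one fell in SIRT1 KD (TXNIP) while another rose (IRS2).

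Among the 3 factors that are members, FOXO3 was the most abundant per length. Divided by exon length, control cells held 196 ± 6.61 normalised counts per kb of FOXO3 (SD, n = 3), 87.4 ± 6.90 of FOXO4 and 36.9 ± 3.48 of FOXO1. FOXO3 made up 61.2% ± 1.10 of the 3 summed per-kb levels in control, 69.2% ± 0.537 in SIRT1 KD, 57.2% ± 1.75 in IGF2BP2 KD and 65.9% ± 1.19 in double KD. FOXO1 was the smallest share in each group, from 7.36% in double KD to 11.5% in control. FOXO6, which is not a member, was left out of these shares. It held 147 ± 11.3 counts per kb in control, more than FOXO4 and FOXO1, and 66.2 in SIRT1 KD and 71.5 in double KD. In IGF2BP2 KD it held 187 ± 5.37, beside 184 ± 1.21 of FOXO3. Among 17316 genes ranked by per-kb level in control, FOXO3 stood at percentile 66.0, FOXO4 at 49.8 and FOXO1 at 36.2.

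FOXO3 (ENSG00000118689.15, chr6:108559835-108684774, GRCh38, plus strand), a FOXO found in most tissues, rose with the SIRT1 hairpin. Its normalised counts were 1546, 1456 and 1542 in control, 2265, 2240 and 2308 in SIRT1 KD, 1430, 1414 and 1413 in IGF2BP2 KD and 1873, 1817 and 1938 in double KD (replicates 1, 2 and 3). All SIRT1 KD libraries lay above all double KD libraries, which lay above all control libraries, and the IGF2BP2 KD libraries lay lowest. FOXO3 rose by 0.58 on the log2 scale in SIRT1 KD (SE 0.059, adjusted p = 6.4e-07) and by 0.31 in double KD (adjusted p = 5.1e-04). The change of -0.09 in IGF2BP2 KD was not called (95% interval -0.22 to 0.03, adjusted p = 0.325). Double KD was lower than SIRT1 KD by -0.28 (adjusted p = 0.00239) and higher than IGF2BP2 KD by 0.40 (adjusted p = 4.7e-05). The near copy FOXO3B, with which FOXO3 may share reads, stood at 54.9 to 83.7 counts.

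FOXO1 (ENSG00000150907.10, chr13:40469953-40666597, minus strand), the FOXO best known for insulin-regulated metabolism, was lower in double KD. Counts were 207, 194 and 233 in control, 207, 206 and 222 in SIRT1 KD, 166, 170 and 167 in IGF2BP2 KD and 164, 129 and 176 in double KD. Control and SIRT1 KD libraries overlapped, and every library with the IGF2BP2 hairpin lay below all of them. The fall in double KD was -0.44 (SE 0.118, adjusted p = 0.00702), or -0.31 without double KD replicate 2 (adjusted p = 0.0215), and the call was lost without control replicate 3 (-0.37, adjusted p = 0.0502). In IGF2BP2 KD the change of -0.33 was not called (interval -0.58 to -0.08, adjusted p = 0.0649), though it passed with edgeR (adjusted p = 0.0494), with only those 2 groups in the fit (adjusted p = 0.0131) and without double KD replicate 2 (adjusted p = 0.00877). Its exons overlap 269 bases of LINC00598 on the same strand, which stood at 0 to 7.37 counts.

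FOXO4 (ENSG00000184481.17, chrX:71096197-71103535, plus strand), a FOXO that is likewise under AKT control, was higher in IGF2BP2 KD. Its counts were 304, 262 and 300 in control, 318, 296 and 320 in SIRT1 KD, 329, 387 and 358 in IGF2BP2 KD and 318, 309 and 352 in double KD. The IGF2BP2 KD libraries lay above all control and SIRT1 KD libraries, and the SIRT1 KD libraries overlapped control. It rose by 0.31 in IGF2BP2 KD (SE 0.095, adjusted p = 0.0319), and this call was lost in 6 of 20 other settings. These were the fit without the low-count filter (adjusted p = 0.135), without control replicate 1 (0.35, adjusted p = 0.053), 2 (0.24, adjusted p = 0.165) or 3 (0.34, adjusted p = 0.0623), and without IGF2BP2 KD replicate 2 (0.25, adjusted p = 0.129) or 3 (0.31, adjusted p = 0.0934). In SIRT1 KD the change was 0.11 (adjusted p = 0.426) and in double KD 0.18 (adjusted p = 0.165), neither called.

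FOXO6 (ENSG00000204060.7, chr1:41361922-41383590, plus strand), the remaining FOXO gene and not among the 10, moved opposite to FOXO3 with the SIRT1 hairpin. It stood at 200, 233 and 216 counts in control, 115, 86.4 and 91.6 in SIRT1 KD, 269, 284 and 272 in IGF2BP2 KD and 97.0, 121 and 98.9 in double KD. Both groups with the SIRT1 hairpin lay below every other library. The fall was -1.15 in SIRT1 KD (adjusted p = 1.7e-06), -1.03 in double KD against control (adjusted p = 4.1e-06) and -1.38 in double KD against IGF2BP2 KD (adjusted p = 2.3e-07). SIRT2, another deacetylase that acts on FOXO proteins, rose by 0.54 in SIRT1 KD (720 ± 20.8 to 1047 ± 27.8 counts, adjusted p = 7.0e-06), by 0.28 in IGF2BP2 KD (adjusted p = 0.00762, or 0.0504 without the low-count filter) and by 0.59 in double KD (adjusted p = 1.8e-06). Its exons overlap 40 bases of NFKBIB on the other strand.

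**Figure D2:**
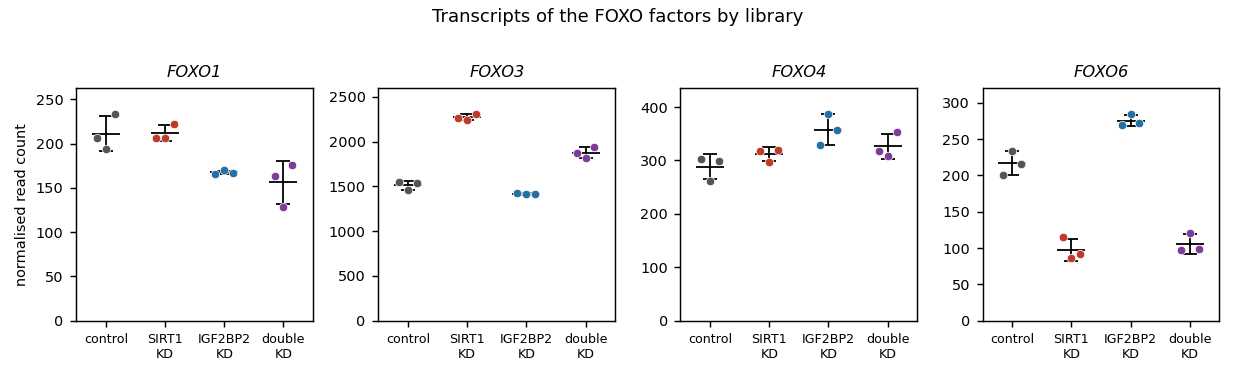
Normalised counts of the FOXO genes in each of the 12 libraries, by group, with the group mean and SD (n = 3). FOXO3 is highest in SIRT1 KD, FOXO1 is lowest in the 2 groups with the IGF2BP2 hairpin, and FOXO6 is lowest in the 2 groups with the SIRT1 hairpin.

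Of the target genes, CCNG2, TXNIP and SESN3 fell in both groups that carried the SIRT1 hairpin and were not called in IGF2BP2 KD. CCNG2 (ENSG00000138764.15, chr4:77157151-77433388, plus strand) encodes cyclin G2, an unconventional cyclin linked to cell cycle exit. Its counts were 1690, 1784 and 1712 in control, 792, 762 and 863 in SIRT1 KD, 1838, 1777 and 1909 in IGF2BP2 KD and 761, 821 and 779 in double KD. Groups with and without the SIRT1 hairpin did not overlap, while the 2 groups with it did. CCNG2 fell by 1.10 on the log2 scale in SIRT1 KD (SE 0.068, adjusted p = 1.6e-09), to 46.6% of control, and stood at 45.5% of control in double KD (log2 change -1.13, adjusted p = 6.0e-10). IGF2BP2 KD changed it by 0.09 (interval -0.05 to 0.23, adjusted p = 0.42), and double KD differed from SIRT1 KD by -0.03 (interval -0.18 to 0.11, adjusted p = 0.781).

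TXNIP (ENSG00000265972.6, chr1:145992435-145996600, minus strand), which binds thioredoxin and limits glucose uptake, was the most abundant member per length. At 6530 ± 662 counts per kb in control (n = 3) it stood at percentile 99.3 of 17316 genes. Its counts were 22473, 18546 and 21925 in control, 13332, 11356 and 13525 in SIRT1 KD, 18765, 20383 and 20815 in IGF2BP2 KD and 11932, 12423 and 13031 in double KD. Every library with the SIRT1 hairpin lay below every library without it. TXNIP fell by 0.72 in SIRT1 KD (SE 0.081, adjusted p = 2.1e-06) and by 0.75 in double KD (adjusted p = 9.7e-07). In IGF2BP2 KD the change was -0.07 (interval -0.24 to 0.10, adjusted p = 0.651).

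SESN3 (ENSG00000149212.12, chr11:95165513-95232541, minus strand), a sestrin that restrains mTORC1 under stress, was the least abundant member per length, at 10.1 ± 0.768 counts per kb in control (n = 3). Its counts were 112, 97.1 and 100 in control, 65.5, 86.4 and 56.8 in SIRT1 KD, 126, 100 and 104 in IGF2BP2 KD and 65.0, 64.5 and 68.0 in double KD. The SIRT1 KD libraries lay below control with a wide spread, and the double KD libraries lay close together. SESN3 fell by 0.58 in SIRT1 KD (SE 0.155, adjusted p = 0.00828), a call lost without SIRT1 KD replicate 3 (-0.45, adjusted p = 0.0602), and by 0.64 in double KD (adjusted p = 0.00355). The change in IGF2BP2 KD was 0.09 (adjusted p = 0.764). Its exons overlap 93 bases of the antisense gene AP000787.1, and whether the counting used strand is not stated in the labels.

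These 3 genes and FOXO3 could be compared again in libraries that were not part of SIRT1 KD against control. In double KD against IGF2BP2 KD, where both groups carried the IGF2BP2 hairpin, 1 of 10 members was higher, where 16.4% of all genes were, and 4 were lower, where 15.2% were (31.6% in either direction). CCNG2 was lower by -1.23 (adjusted p = 1.1e-09), TXNIP by -0.68 (adjusted p = 4.6e-06) and SESN3 by -0.73 (adjusted p = 0.00141), and FOXO3 was higher by 0.40. Thus 4 of the 7 members called in SIRT1 KD against control, and 4 of the 5 called here, were called in the same direction in both, and 0 in opposite directions. Over all genes the shares were 63.3% and 57.3%, so the members' overlap is not a result about the members. CITED2 was the other member called here. IRS2 (0.15, adjusted p = 0.116), FBXO32 (0.17, adjusted p = 0.0972) and CDKN1B (0.01, adjusted p = 0.945), which rose in SIRT1 KD against control, were not called in this comparison. IRS2 passed here without double KD replicate 1 (0.21, adjusted p = 0.0225), and FBXO32 without double KD replicate 2 (0.20, adjusted p = 0.0158).

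Short matches in the 3′ UTRs are shown because the 7-letter words CTCAGAT and TCAGATA had stood out in earlier work on SIRT1 KD in these same libraries, so they give no independent support here. Sites are written with 11 flanking bases on each side, on the gene's strand, from GRCh38 with GENCODE 29 3′ UTRs, and capitals mark the word.
TXNIP (chr1:145993576-145993582, minus): ccatccattttCTCAGATctccttgaaaa
SESN3 (chr11:95169347-95169353, minus): tggctcctctgCTCAGATtgagttttaag
SESN3 (chr11:95170279-95170285, minus): atttataatttCTCAGATcaccttaagaa
SESN3 (chr11:95172842-95172848, minus): gcaattgttttTCAGATAttggaattcag
IRS2 (chr13:109755404-109755410, minus): ctatttacaagCTCAGATgtctctgctct
CDKN1B (chr12:12721061-12721067, plus): ttccttgtttaTCAGATAcatcactgctt
FOXO1 (chr13:40556406-40556412, minus): tatagagctatTCAGATAttttaaatata
Either word is in the 3′ UTR of 5 of 10 members, beside 21.4% of 13121 kept genes. A longer 3′ UTR has more places for a word, and these shares were not matched for length. Member 3′ UTRs ran from 1325 bases (CITED2) to 7742 bases (SESN3). Members that hold a word fell in SIRT1 KD (TXNIP, SESN3), rose (IRS2, CDKN1B) or were not called (FOXO1). CCNG2, whose log2 fall was the largest of the members, holds neither word.

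CDKN1B, IRS2 and FBXO32 were the targets that rose in SIRT1 KD, and they differed in the other knockdowns. CDKN1B (ENSG00000111276.12, chr12:12715058-12722371, plus strand) encodes p27, an inhibitor of cyclin-dependent kinases. Its counts were 1064, 1069 and 1132 in control, 1594, 1517 and 1531 in SIRT1 KD, 1629, 1652 and 1614 in IGF2BP2 KD and 1603, 1582 and 1737 in double KD. All 9 knockdown libraries lay above all control libraries. The rise was 0.51 in SIRT1 KD (SE 0.063, adjusted p = 7.2e-06), 0.58 in IGF2BP2 KD (adjusted p = 3.9e-06) and 0.59 in double KD (adjusted p = 8.4e-07). Double KD differed from SIRT1 KD by 0.08 (interval -0.05 to 0.22, adjusted p = 0.382) and from IGF2BP2 KD by 0.01 (interval -0.13 to 0.14, adjusted p = 0.945).

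IRS2 (ENSG00000185950.9, chr13:109752698-109786568, minus strand) is an adaptor that links the insulin and IGF1 receptors to PI3K. It was counted at 2684, 2651 and 2649 in control, 3718, 3488 and 3585 in SIRT1 KD, 2911, 3098 and 2857 in IGF2BP2 KD and 2996, 3629 and 3221 in double KD. All knockdown libraries lay above control, the SIRT1 KD libraries lay above IGF2BP2 KD, and double KD replicate 2 was the high library of its group. IRS2 rose by 0.43 in SIRT1 KD (SE 0.069, adjusted p = 1.1e-04) and by 0.30 in double KD (adjusted p = 0.00255), or 0.22 without double KD replicate 2 (adjusted p = 0.00192). In IGF2BP2 KD the change of 0.15 was not called (adjusted p = 0.16), but passed with only those 2 groups in the fit (adjusted p = 0.0207) and without double KD replicate 2 (adjusted p = 0.0277). Its exons overlap 115 bases of the antisense gene AL162497.1.

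FBXO32 (ENSG00000156804.7, chr8:123497889-123541206, minus strand) encodes atrogin-1, the substrate-binding part of a ubiquitin ligase known from muscle wasting. Its counts were 1422, 1209 and 1379 in control, 2144, 1967 and 2093 in SIRT1 KD, 1105, 1150 and 1175 in IGF2BP2 KD and 1244, 1227 and 1390 in double KD. The SIRT1 KD libraries lay above all others, the IGF2BP2 KD libraries lay below all others, and double KD overlapped control. FBXO32 rose by 0.63 in SIRT1 KD (SE 0.075, adjusted p = 4.2e-06), while the change in double KD was -0.05 (interval -0.21 to 0.10, adjusted p = 0.635). Double KD was lower than SIRT1 KD by -0.68 (adjusted p = 3.2e-06). The change of -0.22 in IGF2BP2 KD was not called (interval -0.38 to -0.06, adjusted p = 0.0514). It passed with edgeR (adjusted p = 0.0443), DESeq2 (adjusted p = 0.0336), only those 2 groups in the fit (adjusted p = 0.00841), and without control replicate 2 (-0.29, adjusted p = 0.025) or double KD replicate 1 (adjusted p = 0.0441), 2 (adjusted p = 0.00411) or 3 (adjusted p = 0.0388).

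CITED2 (ENSG00000164442.10, chr6:139371807-139374620, minus strand) encodes a coregulator that binds CBP and p300 and competes with HIF-1α for them. Its counts were 5130, 5030 and 5331 in control, 4780, 4390 and 4805 in SIRT1 KD, 5041, 5061 and 5079 in IGF2BP2 KD and 3423, 3608 and 3620 in double KD. Double KD libraries lay far below all others, SIRT1 KD lay just below control, and IGF2BP2 KD overlapped control. CITED2 fell by 0.54 in double KD (SE 0.059, adjusted p = 1.1e-06), to 68.8% of control. Double KD was also lower than SIRT1 KD by -0.39 (adjusted p = 9.97e-05) and than IGF2BP2 KD by -0.51 (adjusted p = 3.3e-06). The changes of -0.15 in SIRT1 KD (interval -0.27 to -0.03, adjusted p = 0.067) and -0.03 in IGF2BP2 KD (adjusted p = 0.807) were not called. That in SIRT1 KD passed with DESeq2 (adjusted p = 0.0287), with only those 2 groups in the fit (adjusted p = 0.00314) and without double KD replicate 1 (adjusted p = 0.0488) or 2 (adjusted p = 0.0195).

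**Figure D3:**
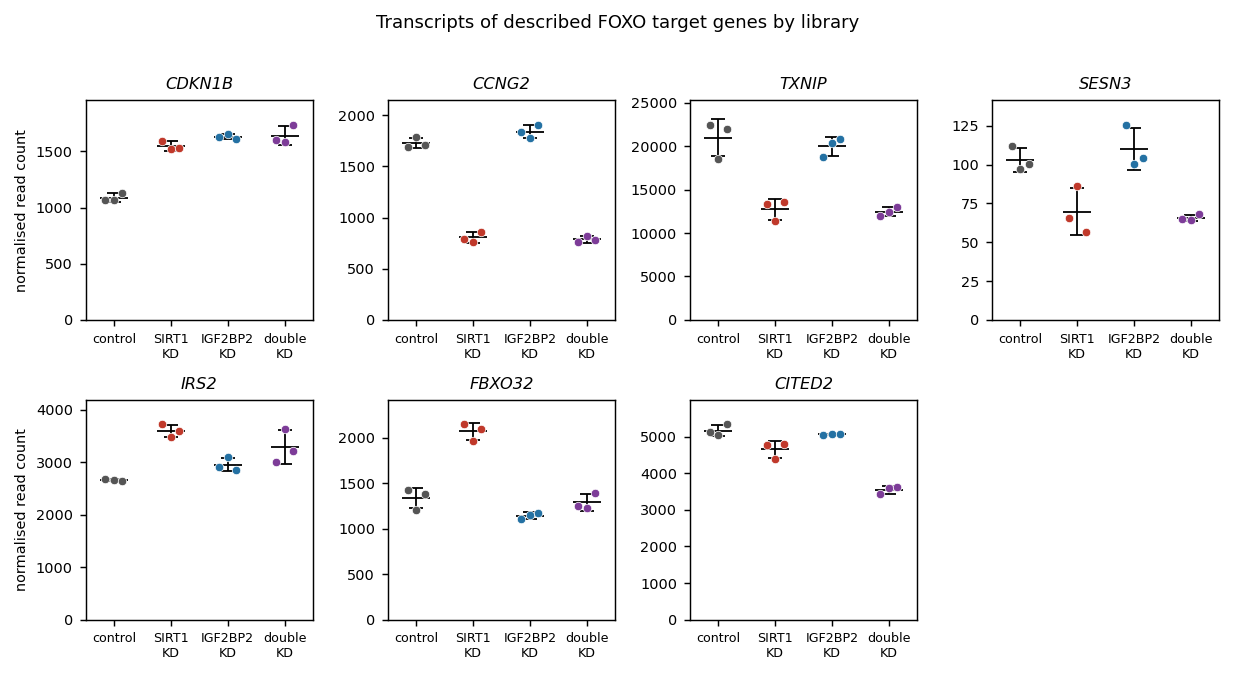
Normalised counts of the 7 target genes in each of the 12 libraries, by group, with the group mean and SD (n = 3). CCNG2, TXNIP and SESN3 are low in both groups with the SIRT1 hairpin, CDKN1B is high in all 3 knockdown groups, FBXO32 is high in SIRT1 KD, and CITED2 is lowest in double KD.

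Double KD was then compared with SIRT1 KD, from which it differed in the IGF2BP2 hairpin and also in its lower SIRT1 mRNA. In double KD against SIRT1 KD 4 of 10 members were lower (FOXO1, FOXO3, FBXO32, CITED2), where 10.7% of all genes were called lower, and 0 were higher, where 11.9% were (22.6% in either direction). No higher member had an unadjusted p under 0.05 (0 members) and edgeR and DESeq2 each called 0. FOXO1 differed by -0.45 (adjusted p = 0.0106), a call lost with only those 2 groups in the fit (adjusted p = 0.0568) and without SIRT1 KD replicate 3 (-0.41, adjusted p = 0.0527). IRS2 differed by -0.14 (adjusted p = 0.177) and passed without double KD replicate 2 (-0.21, adjusted p = 0.00496). FOXO4 (0.07, adjusted p = 0.671) and CDKN1B (0.08, adjusted p = 0.382), the 2 members called in IGF2BP2 KD against control, were not called here. So 0 members were called in both comparisons. Over all genes, 54% of those called in IGF2BP2 KD against control and 38.8% of those called here were called alike in both. With 2 and 4 members called, the counts are too small to set against these shares.

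Between the single knockdowns, SIRT1 KD against IGF2BP2 KD, 4 members were higher (19.3% of all genes) and 3 lower (19.3%), with 38.6% of all genes called in either direction. FOXO3 was higher by 0.68 (adjusted p = 5.8e-08), FBXO32 by 0.85 (adjusted p = 6.0e-08), IRS2 by 0.28 (adjusted p = 0.00309) and FOXO1 by 0.33 (adjusted p = 0.0316). FOXO1 was at the limit: its call was lost without the low-count filter (adjusted p = 0.109) and when any 1 SIRT1 KD library (0.30 to 0.35) or any 1 IGF2BP2 KD library (0.33 to 0.34) was left out. FOXO4 differed by -0.20 (adjusted p = 0.11), and by the same value with an adjusted p of 0.0497 without double KD replicate 2.

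An interaction term asked whether the change in double KD differed from the sum of the single changes on the log2 scale. SIRT1 mRNA itself differed between double KD and SIRT1 KD, and the part of this in the interactions was not tested. It was called for 3 of 10 members, all below the sum, where 1.16% of all genes were below, 1.7% above and 2.86% in either direction. CDKN1B rose by 0.59 in double KD where the single changes sum to 1.09 (interaction -0.50, SE 0.089, interval -0.69 to -0.31, adjusted p = 0.00704). FBXO32 changed by -0.05 where they sum to 0.41 (interaction -0.46, adjusted p = 0.0259), and CITED2 by -0.54 where they sum to -0.18 (interaction -0.36, adjusted p = 0.0259). CDKN1B kept its call in 18 of 18 other settings, with adjusted p up to 0.0341. FBXO32 lost it without control replicate 2 or 3, SIRT1 KD replicate 1 or 3, or IGF2BP2 KD replicate 2 or 3 (-0.49 to -0.39, adjusted p 0.0581 to 0.0991). CITED2 lost it without any 1 control or IGF2BP2 KD library, or SIRT1 KD replicate 1 or 3 (-0.39 to -0.34, adjusted p 0.0519 to 0.0991). IRS2 was not called (-0.29, adjusted p = 0.125) but passed without double KD replicate 2 (-0.36, adjusted p = 0.00171), and CCNG2 (-0.12, interval -0.33 to 0.08) and TXNIP (0.04, interval -0.20 to 0.28) were not called.

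**Figure D4:**
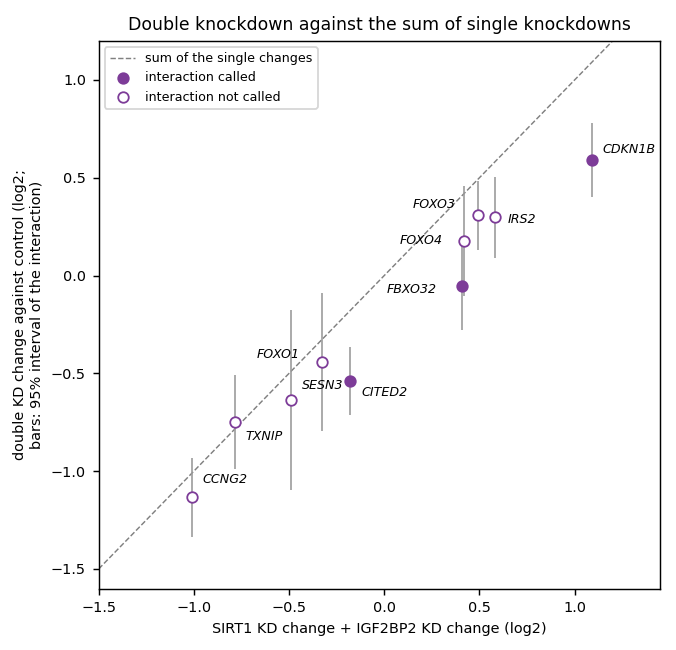
Log2 change of each member in double KD against control (vertical axis) beside the sum of its changes in SIRT1 KD and IGF2BP2 KD (horizontal axis), with the 95% interval of the interaction as bars. The dashed line marks a double KD change equal to the sum. CDKN1B, FBXO32 and CITED2, the filled points, lie below the line.

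The rest of the pathway was read from 3 lists of named genes. Signalling upstream of FOXO held 23 genes, all tested. SIRT1 KD had 8 of them higher and 4 lower (12.9% and 15.7% of all genes), IGF2BP2 KD 3 and 3 (6.86% and 9.39%), and double KD 7 and 5 (16.7% and 17.5%), with medians of 0.05, -0.04 and -0.01. SGK1, a kinase that phosphorylates FOXO3, rose by 0.76 in SIRT1 KD (588 ± 34.4 to 995 ± 31.6 counts, adjusted p = 1.9e-06) and fell in IGF2BP2 KD (-0.60, adjusted p = 6.5e-05). Catalytic subunits of PI3K rose in SIRT1 KD, PIK3CA by 0.53 and PIK3CD by 0.47, and the receptor gene IGF1R by 0.32 and the regulatory subunit gene PIK3R1 by 0.45.

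PHLPP2, a phosphatase of AKT, rose in IGF2BP2 KD by 0.60 (adjusted p = 3.1e-05) and in double KD by 0.92 (613 ± 25.6 to 1164 ± 70.2 counts, adjusted p = 4.8e-08). PDPK1, the kinase that activates AKT, fell in IGF2BP2 KD (-0.31, adjusted p = 0.0087), a call lost without the low-count filter (adjusted p = 0.053). The fall of the PI3K inhibitor gene PIK3IP1 in IGF2BP2 KD (-0.40, adjusted p = 0.0452) was lost in 8 of 12 fits that left out 1 library, and its adjusted p reached 0.234 over all settings. In double KD the kinase gene MTOR rose by 0.57 while its partners RPTOR (-0.38) and RICTOR (-0.59) fell. IRS1, the sister adaptor of IRS2, fell in double KD (4043 ± 168 to 2851 ± 124 counts, -0.50, adjusted p = 3.6e-06), where IRS2 rose.

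Enzymes and proteins that modify or bind FOXO made the next list, with 31 genes, all tested. SIRT1 KD had 4 higher and 10 lower (12.9% and 15.7% of all genes), IGF2BP2 KD 8 and 4 (6.86% and 9.39%), and double KD 8 and 8 (16.7% and 17.5%), with medians of -0.01, 0.06 and -0.02. The 14-3-3 gene YWHAH fell by 1.30 in SIRT1 KD (2065 ± 112 to 838 ± 51.1 counts, adjusted p = 1.3e-09) and by 0.82 in double KD (adjusted p = 2.2e-07). YWHAB fell by 0.43 in SIRT1 KD, while YWHAG rose by 0.62 in double KD (adjusted p = 2.4e-07), so 14-3-3 genes did not share a direction. The ubiquitin ligase gene MDM2 (-0.75), the deacetylase gene HDAC4 (-0.50), the acetyltransferase gene KAT2B (-0.57) and the AMPK subunit gene PRKAA1 (-0.64) fell in SIRT1 KD. SETD7, a methyltransferase that acts on FOXO3, fell by 1.07 in IGF2BP2 KD (3641 ± 101 to 1734 ± 39.9 counts, adjusted p = 2.3e-08). SKP2, a ubiquitin ligase subunit that targets FOXO1 and p27, rose by 0.81 in IGF2BP2 KD (868 ± 46.9 to 1527 ± 112 counts, adjusted p = 7.0e-07) and by 0.83 in double KD, groups in which CDKN1B mRNA was also higher.

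Other genes described as FOXO targets numbered 50, of which 46 were tested. FASLG, PCK1 and G6PC1 did not pass the filter and SOD2 was not matched to a gene ID, and 3 genes of the list are also in the upstream list. SIRT1 KD had 13 higher and 6 lower (median 0.11), where 12.9% and 15.7% of all genes were called. IGF2BP2 KD had 5 and 15 (median -0.12, beside 6.86% and 9.39% of all genes), and double KD 8 and 17 (median -0.09, beside 16.7% and 17.5%). They did not share a direction within a knockdown. FOXM1, a forkhead gene of proliferation that FOXO3 is known to repress, fell by 1.12 in SIRT1 KD (1557 ± 61.3 to 717 ± 28.7 counts, adjusted p = 4.9e-09) and by 0.56 in double KD, groups in which FOXO3 was higher. CCND1, cyclin D1, also known as repressed by FOXO, rose in all 3 knockdowns, by 0.74, 0.38 and 0.94. Whether FOXO proteins took part in the change of either gene was not tested.

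IGFBP1, a classic hepatic FOXO1 target that encodes an IGF-binding protein, fell in all 3 knockdowns. It stood at 653 ± 69.0 counts in control, 391 ± 16.9 in SIRT1 KD (-0.74, adjusted p = 2.8e-04), 306 ± 9.43 in IGF2BP2 KD (-1.09, adjusted p = 1.2e-05) and 157 ± 38.0 in double KD (-2.08, adjusted p = 1.0e-09). From the log2 ratios of the authors' deposited table its call in SIRT1 KD was lost (-0.73, adjusted p = 0.0572). SESN1, a sestrin like SESN3, rose by 1.26 in double KD (96.3 ± 17.8 to 230 ± 8.59 counts, adjusted p = 1.8e-06), where SESN3 fell. TNFSF10, which encodes the death ligand TRAIL, fell by 1.02 in double KD (adjusted p = 8.0e-07). BBC3, which encodes the apoptosis factor PUMA, rose by 0.67 in SIRT1 KD (adjusted p = 1.1e-04) and was not called in double KD (0.13, adjusted p = 0.4). BTG1, an antiproliferative gene, rose by 0.48 in SIRT1 KD and fell in IGF2BP2 KD (-0.60) and double KD (-0.41). KLF6 rose by 0.75 in SIRT1 KD and 0.48 in double KD, and KLF4 fell in IGF2BP2 KD (-0.48).

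**Figure D5:**
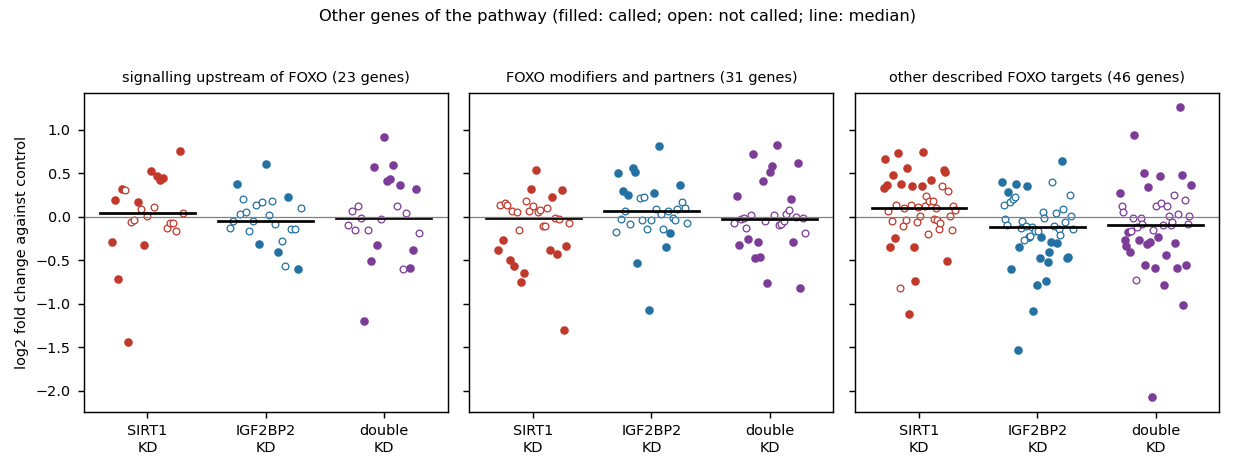
Log2 fold change against control of each tested gene of the 3 pathway lists in SIRT1 KD, IGF2BP2 KD and double KD cells, with filled points for called genes, open points for the others and a line at the median. Genes called higher and lower occur in every list and knockdown, and the medians lie between -0.12 and 0.11.

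Some genes outside the lists followed members closely over the 12 libraries, which fall into the 4 groups. Pearson's r of log2 values was taken as a measure of likeness over protein-coding genes with a mean of at least 100 counts. The genes named had the highest r of 10475 searched for each member, so the values are a description and not a test. The nearest to FOXO3 were ATP6V0A1 (0.993), AVL9 (0.993) and BIRC3 (0.990), and to CCNG2 they were IDI1, EMP2 and TSPAN9 (each 0.993). TXNIP was nearest to ANGPTL2 (0.994), ACTN4 (0.985) and EEF2 (0.984), and CITED2 to DENND2A (0.987), SPRY1 (0.986) and SLC2A1 (0.986). CDKN1B was nearest to AKAP13 (0.980), PPARA (0.976) and ADIPOR1 (0.964). Likeness was lowest for FOXO4, whose nearest were MAPK3 (0.937), CYB5R3 (0.929) and TBC1D8B (0.904).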

How the data were processed

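Per the submitters' processing notes, CASAVA, STAR and DESeq2 were used with GRCh38.p13, and versions, annotation and strand setting are not stated there. The main table holds a signal the authors deposited, read counts that were divided by each library's size factor, and 100% of values in each of the 12 columns were whole multiples of a step (tolerance 0.001 reads). In SIRT1 KD replicate 1 and IGF2BP2 KD replicate 2 that step is 1.01 and 0.995, so near to 1 that it is hard to tell from rounding. Column codes for control and IGF2BP2 KD were read from their letters and those for SIRT1 KD and double KD as the description of the gene set gives them. Each column matched its own library in the log2 ratios the authors deposited (SD at most 0.00365 over 11135 genes, other columns at least 0.118). A deposited table of 12 unnamed raw count columns was not used.

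Tests used limma 3.58.1 (R 4.3.3, trend, robust) on log2(normalised count + 1), with all 12 libraries, group means, and Benjamini-Hochberg adjustment over 17576 genes kept by edgeR's filterByExpr (minimum count 10). This replaces a count test as the main fit because the named columns are normalised. Fold changes on this scale understate those of low genes. Recovered reads went into edgeR 4.0.16 (TMM) and DESeq2 1.42.0 as alternatives, beside pseudocounts of 5 and 0.5, no filter, only the 2 groups compared, a replicate block, the authors' log2 ratios, and leaving out each library. Symbols came from a gene name table (60507 of 60649 IDs matched), positions and exon lengths from GENCODE 29, and promoters from RefSeq. The gene IDs printed are those of the expression table. For all members but FBXO32, GENCODE 29 holds an earlier version of the ID, so exon lengths may differ from those that were counted.

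Named genes were all members, SIRT1, SIRT2, IGF2BP2, FOXO6, up to 8 called genes per list and comparison by adjusted p, and the 3 genes most alike; some named this way are not reported here. Members, lists and 3′ UTR words were chosen with earlier results of these data known.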

Additional observations from a re-analysis of the deposited data

Results flagged for a closer look

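These genes were set apart because a test of the difference itself, the interaction term of the 2 knockdowns in limma, was called: the change in double KD differed from the sum of the single changes. Double KD had less SIRT1 mRNA than SIRT1 KD (-0.38, adjusted p = 0.00157), and the part of this in the interactions was not tested. Among members, the interaction was -0.50 for CDKN1B, -0.46 for FBXO32 and -0.36 for CITED2. Among pathway genes, the adaptor gene IRS1 had -0.42 (adjusted p = 0.0148): it was not called in either single knockdown (-0.03 and -0.05) and fell by 0.50 in double KD. BBC3, which encodes the apoptosis factor PUMA, had -0.67 (adjusted p = 0.0228), with a rise in SIRT1 KD that was not called in double KD. ATG14, an autophagy gene, had -0.45 (adjusted p = 0.0188), with rises of 0.33, 0.40 and 0.27 in SIRT1 KD, IGF2BP2 KD and double KD.

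Above the sum stood CDK2, a cell cycle kinase gene (0.48, adjusted p = 0.0275), and STK4, which encodes the kinase MST1 (0.35, adjusted p = 0.0477). Both fell in SIRT1 KD (-0.38 each) and were not called in double KD (-0.07 and 0.04). Of the 12 fits that leave out 1 library, the call was lost in 3 for IRS1, 5 for ATG14, 7 for BBC3, 8 for CDK2 and 10 for STK4. Without the low-count filter the call was lost for ATG14 (adjusted p = 0.0808) and STK4 (adjusted p = 0.0561).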

How the results depend on the processing

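Of 36 called member results over the 7 comparisons, 29 kept call and direction in all settings run and 0 reversed. Of 34 not called, 9 gained a call in some setting. In IGF2BP2 KD against control, members called higher numbered 2, or 1 with no filter. With only those 2 groups in the fit, IRS2 was called higher as well (limma adjusted p = 0.0207). Members called lower numbered 0, but 2 with edgeR, 1 with DESeq2 and 2 with only those groups in the fit. The replicate block gave 1 lower (FBXO32, adjusted p = 0.0371). Leaving out 1 library at a time gave 1 to 3 higher and 0 to 2 lower in IGF2BP2 KD, 1 to 2 higher in double KD against IGF2BP2 KD, and 1 to 4 below the sum of the single changes. The cause was not tested.

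Direction changed only for differences near 0 that were not called, when 1 library was left out, and the cause was not tested. The values ranged from -0.0548 to 0.077 for FOXO1 in SIRT1 KD and -0.00705 to 0.154 for SESN3 in IGF2BP2 KD. In double KD against SIRT1 KD they ranged from -0.0724 to 0.018 for CCNG2, -0.109 to 0.0175 for TXNIP and -0.19 to 0.107 for SESN3. In double KD against IGF2BP2 KD they ranged from -0.203 to 0.0204 for FOXO1 and -0.0346 to 0.0327 for CDKN1B. For the interaction they ranged from -0.207 to 0.0163 for FOXO1, -0.0423 to 0.125 for TXNIP, -0.281 to 0.0162 for SESN3 and -0.224 to 0.0126 for IGF2BP2.

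No pairing by replicate number was seen: over 18 same-numbered pairs, deviations from the group means correlated at -0.193 to 0.0996. Over 36 other pairs they correlated at -0.165 to 0.229. These values do not show that the libraries were unpaired. With 3 libraries per group, and as few as 47 reads for SESN3, changes of low genes are the least precise. IGF2BP2's rise of 0.29 in SIRT1 KD (adjusted p = 0.0274) was lost without any 1 control or SIRT1 KD library (0.28 to 0.30, adjusted p 0.0618 to 0.0809). From the authors' deposited log2 ratios that call was lost as well (0.29, adjusted p = 0.337).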
